A study of Mus musculus with 12 samples.

Results

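The 10 genes described here encode matrix metalloproteinases (Mmp2, Mmp8, Mmp9, Mmp12, Mmp13 and Mmp14), the tissue inhibitors that block them (Timp1, Timp2 and Timp3), and the sheddase Adam17. They were chosen by name, through the accession that each probe carries, and 13 of the 39429 probes on the array belonged to them. Of the 10 genes, 9 passed the filter on dim signals and were tested among 19802 genes in all. Mmp2 did not pass it. Mmp12, Timp2 and Adam17 had 2 probes each, and the single Mmp9 probe was printed 10 times per array.

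The cells were primary microglia, the resident macrophages of the brain, shaken off mixed glial cultures from the brains of newborn C57BL/6 mice. One group received culture supernatant of Th1 cells, a second received supernatant of Th17 cells, and the untreated control received T cell culture medium that no T cell had conditioned. RNA was taken after 16 h from 4 cultures per group, 1 array each, in experiments numbered 12, 13, 14 and 16, so every experiment held all 3 groups. Microglia prepared in this way are not the adult cells in brain tissue, and the supernatants contain many T cell products at once.

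Matrix metalloproteinases are zinc-dependent enzymes that cut collagens, elastin and other proteins outside the cell. They are made as inactive proenzymes, and many are switched on by cutting, for example by plasmin or by another metalloproteinase. Tissue inhibitors bind the active site of the mature enzyme. In the brain this system is known for opening the basement membrane around vessels and for releasing cytokines and growth factors from cell surfaces.

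The values are normalised signals on the log2 scale, where a step of 1 is a doubling, and signals under 15 were set to 15 (3.91 on the log2 scale). A gene was called higher or lower when limma's moderated test gave a Benjamini-Hochberg adjusted p under 0.01 over all genes and the change was over 2-fold. The label of the cells was checked first. All 11 microglial markers on the array were well above background on all 12 arrays, whereas the astrocyte markers Gja1 and Sox9, the T cell markers Cd3d, Cd3g, Cd2, Cd8a and Il2ra and the neutrophil markers Mpo, Ngp and Ltf were not above background on any array. The other lists were not empty. Of the 10 astrocyte markers 4 to 8 were above background on an array, and Aqp4, Aldh1l1, Fabp7 and Aldoc were so on all 12. The numbers were 7 to 10 of 10 oligodendrocyte lineage markers, 4 to 6 of 7 endothelial markers, 4 to 6 of 10 fibroblast and mural markers, 4 to 5 of 9 neutrophil markers and 5 of 10 T cell markers. No probe was saturated on any array, and between 54.49% and 64.99% of the probes on an array were well above background.

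Th1 supernatant changed 4 of the 9 tested genes. Mmp13, Mmp14 and Timp1 rose and Timp2 fell, while Mmp8, Mmp9, Mmp12, Timp3 and Adam17 were not called. Over all genes tested, 7.49% were called higher and 7.88% lower in that comparison. The median log2 change was -0.36 over the 9 tested genes and -0.06 over all genes. With Th17 supernatant, 0 of the 9 were called higher or lower, against 0% of all genes in either direction. Set against Th17 supernatant, Th1 supernatant gave the same 3 genes higher and the same gene lower, where 6.89% of all genes were called higher and 7.91% lower. The 3 comparisons use each group more than once and are therefore not independent of each other.

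**Figure D1:**
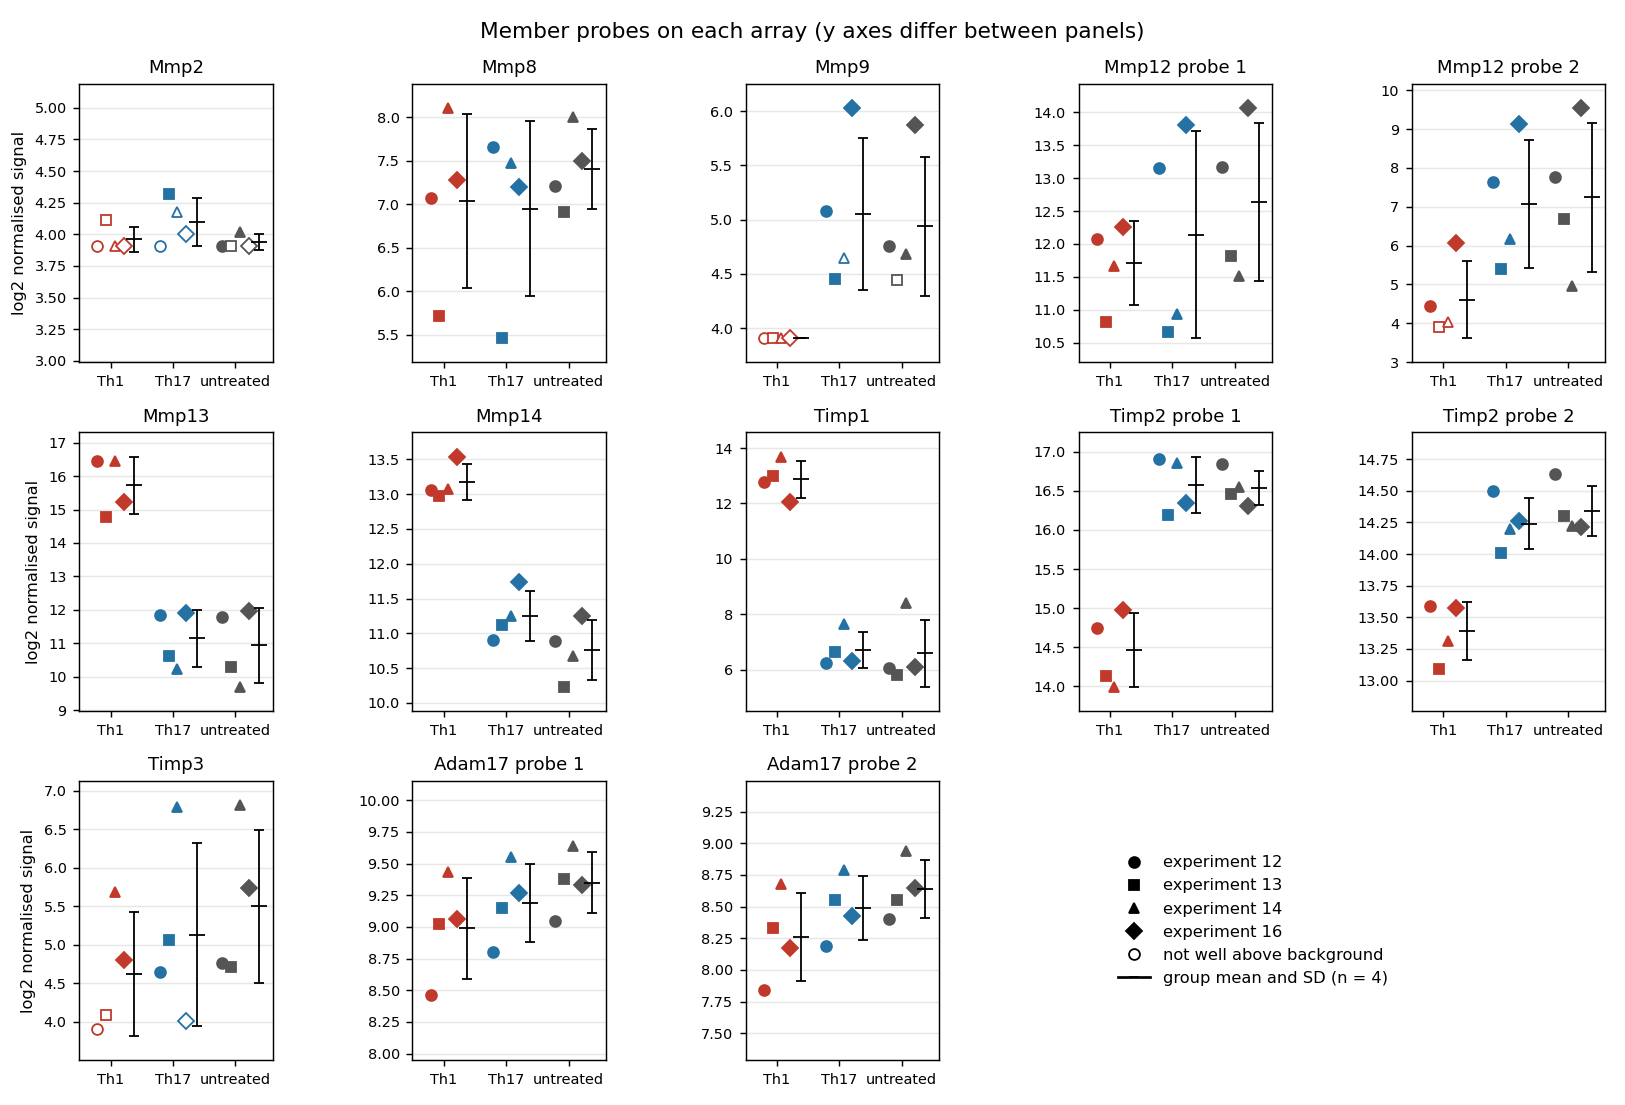
Each panel shows 1 probe, with its log2 normalised signal on the y axis and the groups (Th1, Th17, untreated) on the x axis. Symbols give the experiment, open symbols mark arrays where the probe was not well above background, and the bar gives the group mean and SD (n = 4). The Th1 arrays lie clear of all other arrays for Mmp13, Mmp14, Timp1 and both Timp2 probes, and all 4 lie at the floor for Mmp9.

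Mmp13 is the main interstitial collagenase of the mouse. It lies at the end of a cluster on chromosome 9, where RefSeq places 10 metalloproteinase genes side by side, with Mmp12 next to it and Mmp8 seventh in the order. The 250 bases before its start are shown because Mmp13 had the largest change among the metalloproteinase members and because 2 kinds of motif searched for were found there. The sequence is from RefSeq's promoter table (GRCm38.p6, plus strand, chr9:7272264-7272513), with motif matches in capitals:
Mmp13: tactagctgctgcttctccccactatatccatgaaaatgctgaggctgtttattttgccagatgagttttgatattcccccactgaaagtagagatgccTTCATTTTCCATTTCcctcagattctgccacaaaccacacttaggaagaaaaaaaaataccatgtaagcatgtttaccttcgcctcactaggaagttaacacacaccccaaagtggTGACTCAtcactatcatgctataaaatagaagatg

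The run of capitals nearest the start is a match to the AP-1 letters TGANTCA, beginning 35 bases before the start. The other run holds 2 matches to the core of the interferon-stimulated response element, GAAANNGAA, both on the minus strand and overlapping each other, beginning 151 and 145 bases before the start. The gamma-activated site TTCNNNGAA was searched for as well and was not matched. On both strands of the 250 bases before 32851 starts in the table, 6.75% held the AP-1 letters, 7.02% the gamma-activated site and 7.13% the response element core. The table held starts for 8 of the 10 genes, all but Mmp2 and Mmp9. Apart from Mmp13, the only match was to AP-1 before the second listed start of Mmp12 (chr9:7347322-7347344, plus strand), shown here beside the Mmp13 site (chr9:7272471-7272493, plus strand) because both lie close to the start, 44 and 35 bases before it:
Mmp12: atcaacagTGAGTCAgatagagg
Mmp13: caaagtggTGACTCAtcactatc

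The promoters of Mmp14, Timp1 and Timp2, which also changed with Th1 supernatant, held none of the 3 motifs in this window. The same was found for Mmp25, a metalloproteinase outside the chosen genes that was searched as well and rose with Th1 supernatant. Matches of letters are a description of the sequence and were not tested for binding.

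In Th1-treated microglia Mmp13 stood at 16.45, 14.77, 16.44 and 15.22 in experiments 12, 13, 14 and 16. In Th17-treated cells it stood at 11.85, 10.63, 10.23 and 11.90, and in untreated cells at 11.80, 10.29, 9.70 and 11.96. The Th1 arrays were all higher than every other array, and the Th17 and untreated arrays covered the same range. The difference between Th1 and untreated cells was 4.78 ± 0.60 (log2, standard error), a 27.5-fold rise (adjusted p = 7.14e-05), with a 95% interval of 3.46 to 6.10. Within the experiments it ran between 9.54-fold in experiment 16 and 107-fold in experiment 14. Untreated cells of experiment 14 had the lowest signal of that group, and its Th1-treated cells were among the highest, so the order of the experiments was not the same with and without Th1 supernatant. Against Th17-treated cells the rise was 4.56 ± 0.60 (adjusted p = 0.000112). The Th17 difference from untreated cells was 0.22, with an interval of -1.10 to 1.54.

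Mmp14 is a metalloproteinase anchored in the plasma membrane, and it activates the proenzymes of Mmp2 and Mmp13. Its signals were 13.06, 12.98, 13.08 and 13.54 in Th1-treated cells, 10.90, 11.12, 11.25 and 11.74 in Th17-treated cells, and 10.89, 10.23, 10.68 and 11.25 in untreated cells. The Th1 arrays again lay above all others. The rise over untreated cells was 2.40 ± 0.23, or 5.28-fold (adjusted p = 1.06e-05), and it varied little between experiments, lying between 4.49-fold and 6.73-fold. The rise over Th17-treated cells was 1.91 ± 0.23 (adjusted p = 6.48e-05). Mmp14 also had the largest positive difference of the 9 genes with Th17 supernatant, 0.49 with an interval of -0.02 to 1.00, which was not called (adjusted p = 1). The difference was 0.00, 0.90, 0.57 and 0.48 in experiments 12, 13, 14 and 16, and the Th17 and untreated ranges overlapped.

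Timp1 is an inducible inhibitor of most secreted metalloproteinases, including the collagenases and Mmp9. It had the largest change of the 9 genes. Its signals were 12.76, 12.98, 13.69 and 12.04 in Th1-treated cells, 6.25, 6.65, 7.64 and 6.30 in Th17-treated cells, and 6.06, 5.81, 8.40 and 6.10 in untreated cells. The groups were separated by several doublings except between Th17-treated and untreated cells, which overlapped. The rise over untreated cells was 6.27 ± 0.56, or 77.3-fold (adjusted p = 5.66e-06), and over Th17-treated cells 6.16 ± 0.56 (adjusted p = 7.70e-06). By experiment the rise over untreated cells lay between 39.1-fold in experiment 14 and 143-fold in experiment 13. The Th17 difference from untreated cells was 0.11, with an interval of -1.11 to 1.34.

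Timp2 inhibits metalloproteinases and also serves as the bridge through which Mmp14 binds and activates the Mmp2 proenzyme. It was the 1 called gene that fell. Its brighter probe read 14.74, 14.13, 13.99 and 14.97 in Th1-treated cells, 16.91, 16.19, 16.86 and 16.35 in Th17-treated cells, and 16.84, 16.46, 16.55 and 16.31 in untreated cells. All 4 Th1 arrays lay below all 8 others. The difference was -2.08 ± 0.24 from untreated cells, a 4.24-fold fall (adjusted p = 3.73e-05), and -2.12 ± 0.24 from Th17-treated cells (adjusted p = 3.75e-05). The second probe also read lower on every Th1 array than on any other, at 13.59, 13.09, 13.31 and 13.57 in Th1-treated cells, 14.50, 14.01, 14.20 and 14.26 in Th17-treated cells, and 14.63, 14.30, 14.22 and 14.21 in untreated cells. Its difference from untreated cells was smaller, -0.95 ± 0.15 or 1.93-fold (adjusted p = 0.00039 over 24287 probes), and stayed under the 2-fold limit.

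Of the members that were not called, Mmp9, a gelatinase that cuts basement membrane collagen, came nearest. Its signal was set to the floor of 3.91 on all 4 Th1 arrays and was well above background on none of them. Th17-treated cells gave 5.08, 4.45, 4.65 and 6.03, and untreated cells 4.76, 4.44, 4.68 and 5.87, with 3 of 4 arrays well above background in either group. The Th1 arrays therefore lay below all others, with only an upper bound on their signal, and Mmp9 was at least 1.45-fold lower than in Th17-treated cells and at least 1.34-fold lower than in untreated cells. These bounds set the mean log2 signal of the brighter group over all its arrays against the mean, per Th1 array, of the higher of the probe's own signal and the lowest signal well above background. Both bounds stayed under 2-fold, and Mmp9 passed the filter on dim signals only through Th17-treated and untreated arrays. The adjusted p was 0.0208 against Th17-treated cells and 0.0329 against untreated cells. With the experiment as a block it was 0.00417 and 0.00678, in the same order, which passed both limits with the floor taken as the Th1 signal. Over all alternatives tried it ran between 0.001 and 0.665 against untreated cells and between 0.000982 and 0.438 against Th17-treated cells. Without the floor the difference was -2.18 from Th17-treated cells and -2.07 from untreated cells, and both were called, whereas a floor of 50 left -0.10 and -0.06. The 9 or 10 spots of the probe on an array varied with a coefficient of variation of 11.2% to 38%.

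Mmp12, the macrophage elastase, varied widely between experiments. Its brighter probe read 12.08, 10.81, 11.67 and 12.26 in Th1-treated cells, 13.15, 10.66, 10.94 and 13.81 in Th17-treated cells, and 13.17, 11.81, 11.51 and 14.07 in untreated cells, and all 3 groups overlapped. The Th1 difference from untreated cells was -0.94 ± 0.76 (adjusted p = 0.34), and it was lower in 3 of 4 experiments. The second probe read 4.45, 3.91, 4.02 and 6.06 in Th1-treated cells, 7.64, 5.40, 6.16 and 9.12 in Th17-treated cells, and 7.76, 6.69, 4.96 and 9.55 in untreated cells. It was well above background on 2 of 4 Th1 arrays and on every other array. Its difference was -2.63 ± 0.99 from untreated cells (adjusted p = 0.0488) and -2.47 ± 0.99 from Th17-treated cells (adjusted p = 0.0632), lower in 4 of 4 experiments in both comparisons. With the experiment as a block the adjusted p was 0.000996 and 0.00147, in the same order, so the second probe was then called, and the brighter probe was not (0.049 and 0.326). The difference between the probes was not tested.

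Mmp8, known as the neutrophil collagenase, was measured on all arrays. It read 7.07, 5.71, 8.11 and 7.28 in Th1-treated cells, 7.66, 5.46, 7.48 and 7.20 in Th17-treated cells, and 7.21, 6.91, 8.0 and 7.50 in untreated cells. No group stood apart, and the intervals of its differences from untreated cells were -1.56 to 0.84 for Th1 and -1.66 to 0.74 for Th17. The gelatinase Mmp2 was well above background on 3 of 12 arrays, 0 with Th1 supernatant, 1 with Th17 supernatant and 2 untreated, and its highest value was 4.32. No level or difference is given for it.

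Timp3 differs from the other inhibitors in that it binds to the extracellular matrix and also blocks Adam17. It was close to background, with 3.91, 4.09, 5.68 and 4.80 in Th1-treated cells, 4.65, 5.06, 6.79 and 4.01 in Th17-treated cells, and 4.76, 4.71, 6.81 and 5.74 in untreated cells. The Th1 array was the lower one in 4 of 4 experiments against untreated cells, with a difference of -0.88 ± 0.64 (adjusted p = 0.285), and the groups overlapped. With the experiment as a block the interval was -1.62 to -0.15 and the adjusted p 0.0443, still not called. Adam17, the enzyme that cuts tumour necrosis factor and its receptors from the cell surface, read 8.46, 9.02, 9.43 and 9.06 in Th1-treated cells, 8.80, 9.15, 9.55 and 9.27 in Th17-treated cells, and 9.05, 9.38, 9.64 and 9.33 in untreated cells on its brighter probe. It too was lower in 4 of 4 experiments with Th1 supernatant, by a small amount. The difference was -0.36 ± 0.21 (adjusted p = 0.199), and with the experiment as a block its adjusted p was 0.00565 at a change of 1.28-fold, under the 2-fold limit. The second Adam17 probe gave -0.38 ± 0.19.

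**Figure D2:**
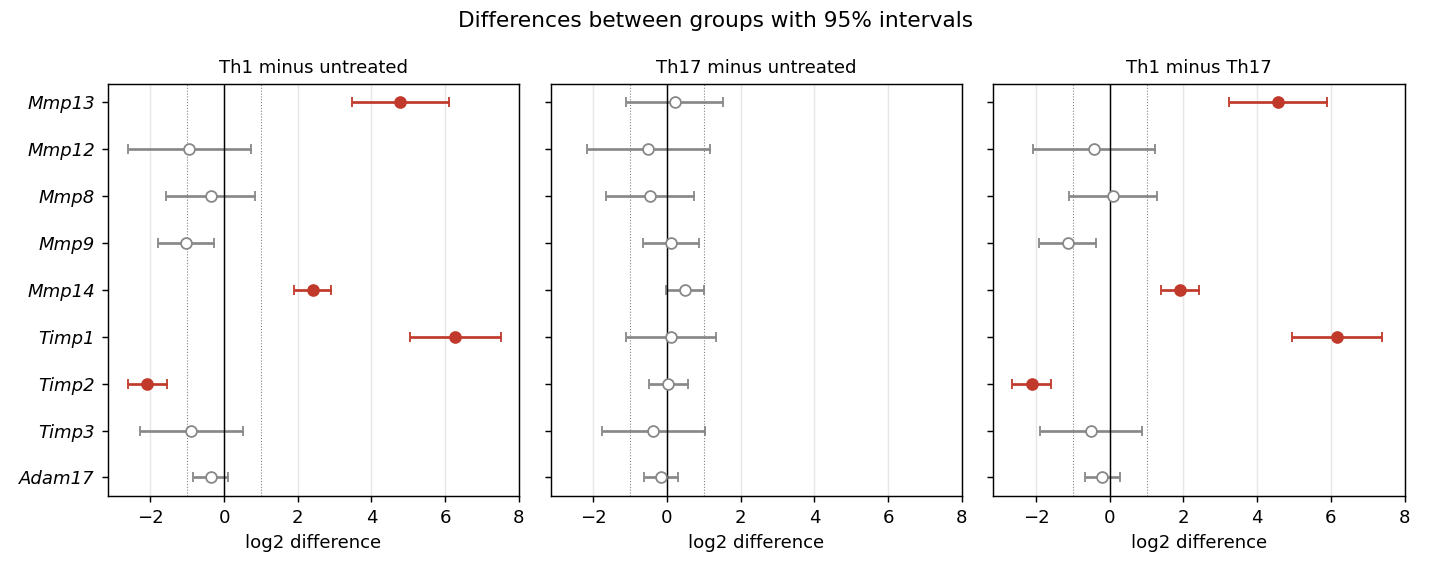
The log2 difference between groups is on the x axis and the 9 tested genes are on the y axis, each by the probe used for the gene, with 95% intervals. Filled red points were called, and dotted lines mark a 2-fold change. Mmp13, Mmp14, Timp1 and Timp2 were called in both comparisons with Th1 supernatant on top, and no gene was called between Th17-treated and untreated cells.

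Between Th17-treated and untreated cells limma called 0 of the 19802 genes, with or without the experiment as a block. Without the block, 325 had an unadjusted p under 0.05. None of the 9 was among the 325. For Timp2 the interval of the Th17 difference was -0.49 to 0.56, for Adam17 -0.63 to 0.31 and for Mmp9 -0.66 to 0.88. These leave out a 2-fold change in either direction, though Mmp9 was close to background. The Mmp14 interval, -0.02 to 1.00, ended at the 2-fold limit. For Mmp13, Mmp12, Mmp8, Timp1 and Timp3 the intervals reached past a 2-fold change, so a change of that size was not excluded. With the experiment as a block the Timp1 interval was -0.52 to 0.75, within 2-fold, while those of Mmp13 (-0.86 to 1.29), Mmp12 (-1.31 to 0.30), Mmp8 (-1.08 to 0.17) and Timp3 (-1.11 to 0.36) still reached past it. The blocked interval of Mmp14 was 0.19 to 0.79, within 2-fold and, alone among the 9, not reaching 0. Its adjusted p in the blocked limma fit was 0.901.

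The arrays of 1 experiment moved together in ways that differed between the members. Mmp12 was highest in experiments 16 and 12 in every group, and Mmp9 was highest in experiment 16 wherever it could be measured. Mmp13 had its highest signals in experiments 16 and 12 in Th17-treated and untreated cells. In Th1-treated cells it was highest in experiments 12 and 14. Timp1, Timp3 and Adam17 were instead highest in experiment 14 in every group, by 1.19, 1.34 and 0.36 on average over the group means.

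**Figure D3:**
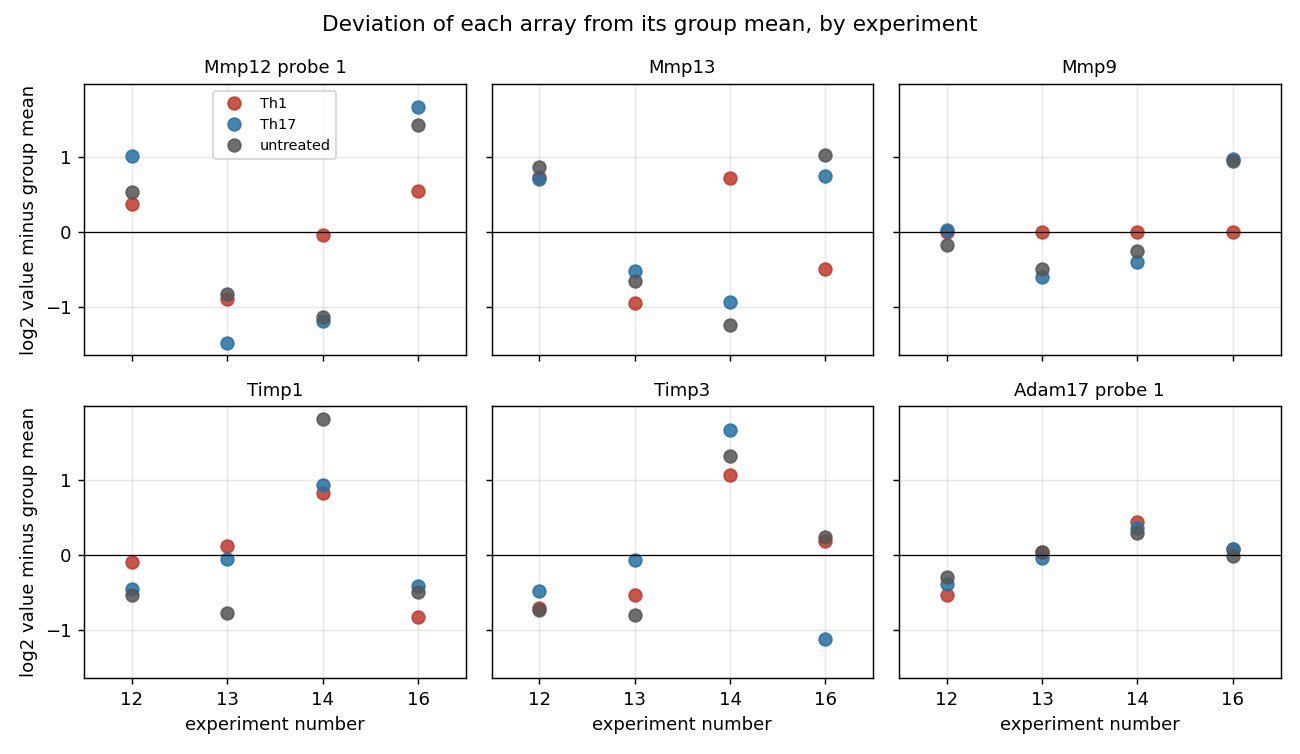
For 6 members, the log2 value of each array minus the mean of its group is on the y axis and the experiment number on the x axis, with colours for the groups. Timp1, Timp3 and Adam17 lie above 0 in experiment 14 for all 3 groups, and Mmp12 lies above 0 in experiments 12 and 16.

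Some markers of other glia were also highest in experiment 14, though not the whole lists. Of the 10 astrocyte markers, 4 (Gfap, Slc1a3, Fabp7 and S100b) were highest on the experiment 14 array in all 3 groups, as were 4 of the 10 oligodendrocyte lineage markers (Mbp, Olig1, Sox10 and Cldn11), 1 of 10 fibroblast and mural markers, and 0 of 11 microglial markers. Gfap, for example, read 7.63, 7.36 and 7.17 in Th1-treated, Th17-treated and untreated cells of experiment 14, against 3.99 to 5.81 on all other arrays. The summed signal of all 10 astrocyte markers, by contrast, was higher in experiment 16 (5825, 11941 and 12061 in Th1-treated, Th17-treated and untreated cells) than in experiment 14 (4529, 7571 and 9016). The oligodendrocyte lineage sum was highest in experiment 14 in Th17-treated and untreated cells (20467 and 32399), and in Th1-treated cells it was 19648 there and 21018 in experiment 12. In a bulk sample more cells of a type cannot be told apart from more RNA per cell, and the part of these cells in the Timp1 and Timp3 signals was not tested. Without the 3 arrays of experiment 14, Timp1 rose by 6.60 ± 0.24 (adjusted p = 1.17e-06) with Th1 supernatant over untreated cells. Mmp13 then rose by 4.13 ± 0.59 (adjusted p = 0.00094), Mmp14 by 2.40 ± 0.31 (adjusted p = 0.000574), and Timp2 changed by -1.92 ± 0.27 (adjusted p = 0.000846).

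Across groups, the summed signal of the 10 astrocyte markers ranged over 4230 to 5825 in Th1-treated cells, 4158 to 11941 in Th17-treated cells and 4991 to 12061 in untreated cells. That of the 7 endothelial markers was 20066 to 28208 in Th1-treated cells, above both the 12189 to 14503 in Th17-treated cells and the 14663 to 18996 in untreated cells. By tested endothelial marker, the Th1 difference from untreated cells was 3.79 for Vwf, 0.99 for Cdh5, 0.94 for Flt1, 0.60 for Pecam1 and -0.33 for Kdr. The sum over the 11 microglial markers was 983679 to 1053655 in Th1-treated cells, below the 1255328 to 1653358 in Th17-treated cells and the 1247614 to 1638552 in untreated cells. For the 10 fibroblast and mural markers the sums were 3183 to 4979 in Th1-treated, 2412 to 3591 in Th17-treated and 2488 to 4127 in untreated cells. They were 14318 to 21018, 15392 to 20467 and 16287 to 32399 for the 10 oligodendrocyte lineage markers, in the same order of groups. The 9 neutrophil markers summed to 29125 to 43530 with Th1 supernatant, 35798 to 57376 with Th17 supernatant and 40646 to 57944 without, and the 10 T cell markers to 7515 to 8688 with Th1 supernatant, 6593 to 11134 with Th17 supernatant and 9874 to 11270 without. Of the 11 tested microglial markers, 2 (Aif1 and P2ry12) were called higher and 4 (Cx3cr1, Tmem119, Trem2 and Fcrls) lower with Th1 supernatant. Over all genes, 7.49% were called higher and 7.88% lower. Called higher and lower in other lists were 0 and 1 of 7 tested astrocyte markers, and 2 and 2 of 9 oligodendrocyte lineage markers. The counts were 1 and 0 of 5 endothelial markers, and 0 and 0 of 5 fibroblast and mural markers. They were 0 and 1 of 4 neutrophil markers, and 1 and 2 of 5 T cell markers. The part of these shifts in the results was not tested.

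The 12 arrays lay on 3 slides, and every slide held all 3 groups. Experiment 12 lay wholly on slide 1 and experiment 16 wholly on slide 3, while experiments 13 and 14 were split between slides. Slide and experiment therefore overlap largely, and on slide 3 the Th1 and untreated arrays were those of experiment 16 alone. On slide 1 the Th1 array was that of experiment 12 and the untreated arrays those of experiments 12 and 13. On slide 2 the Th1 arrays were those of experiments 13 and 14. The untreated array there was that of experiment 14 alone, where Timp1 read 8.40. Differences within slides 1 and 2 therefore mix experiments. With the slide as a block, the Th1 difference from untreated cells was 5.02 for Mmp13, 2.38 for Mmp14, 5.97 for Timp1 and -1.95 for Timp2, all still called. Within slides 1, 2 and 3 the Mmp13 difference was 5.40, 5.91 and 3.25. For Mmp14 it was 2.50, 2.35 and 2.29. The Timp1 difference was 6.83, 4.93 and 5.94 within the slides, and that of Timp2 was -1.91, -2.49 and -1.34. All 4 genes kept their direction on every slide. Mmp9 differed by -0.69, -0.78 and -1.97 within the slides and by -1.02 with the slide as a block (adjusted p = 0.028).

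Among the other metalloproteinases the array could measure, Mmp25 responded most. Mmp25, also called leukolysin, is a membrane-anchored enzyme of leukocytes. Of 17 listed metalloproteinases, 16 were on the array, 6 were tested, and Mmp25 was the 1 called, higher with Th1 supernatant. Over all genes, 7.49% were called higher and 7.88% lower in that comparison. It read 12.87, 12.68, 12.99 and 11.55 in Th1-treated cells and 3.91, 6.10, 3.91 and 3.91 in Th17-treated cells, with 1 of those 4 arrays above background, and it was at the floor on every untreated array. Mmp25 was therefore at least 338-fold higher in Th1-treated than in untreated cells (adjusted p = 1.43e-07). It passed the filter on dim signals only through the Th1 arrays, so its place among the 6 tested genes depended on the group in which it was high. Of the other 5, Mmp19 differed by 1.44 ± 0.40 (adjusted p = 0.0124) and Mmp11 by -1.40 ± 0.39 (adjusted p = 0.0119), which missed the limit. Mmp10, a stromelysin from the chromosome 9 cluster, cleared background on 0 of 4 Th1 arrays and 4 of 4 arrays of untreated cells (at least 1.63-fold lower, adjusted p = 0.0295). It passed the filter only through the Th17-treated and untreated arrays. Of the cluster's 10 genes, Mmp13, Mmp12, Mmp10 and Mmp8 were tested, and only Mmp13 was called. The 6 genes had a median log2 change of 0.28, against -0.06 over all genes.

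Of 10 tested relatives of Adam17 in the ADAM and ADAMTS families, 4 were called lower, 0 higher and 6 neither with Th1 supernatant (median -0.50), where 7.88% of all genes were called lower and 7.49% higher. Adamts1, which cuts the proteoglycans aggrecan and versican, fell by 2.54 ± 0.33 on the log2 scale, 5.81-fold (adjusted p = 8.37e-05), Adamts10 fell by 1.57 ± 0.29 and Adam8, a leukocyte sheddase, fell by 1.18 ± 0.18. Adam22 was not above background on any Th1 array and was at least 1.41-fold lower. It passed the filter on dim signals only through the Th17-treated and untreated arrays, where it was brighter. Its call rests on a fitted fall of 2.15-fold that takes the floor as the Th1 signal. Adam10, the sheddase most like Adam17, differed by -0.83 ± 0.23 (adjusted p = 0.0117).

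Partners of Adam17 changed although Adam17 itself was not called. The inactive rhomboids Rhbdf1 and Rhbdf2 (iRhom1 and iRhom2) carry Adam17 to the cell surface, and Rhbdf2 is known for doing so in macrophages. Rhbdf2 rose by 1.46 ± 0.13, 2.75-fold (adjusted p = 5.4e-06), with 13.29, 13.08, 13.37 and 13.20 in Th1-treated cells, 11.64, 11.63, 11.85 and 11.88 in Th17-treated cells, and 11.52, 11.67, 12.08 and 11.83 in untreated cells. Rhbdf1 fell by 3.24 ± 0.37 on the log2 scale (adjusted p = 3.85e-05), with 6.02, 6.31, 7.86 and 7.0 in Th1-treated cells, 9.96, 9.22, 10.23 and 9.38 in Th17-treated cells, and 9.97, 9.96, 10.53 and 9.66 in untreated cells. The Th1 arrays lay outside the range of all others for both genes, in opposite directions. Frmd8, which stabilises the complex, differed by 0.21 ± 0.10.

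Of 13 tested genes whose proteins Adam17 is known to cut, 3 were called higher and 1 lower with Th1 supernatant (median -0.19), beside 7.49% higher and 7.88% lower over all genes, so the share called lower was near that of all genes. The adhesion molecules Vcam1 and Icam1 rose by 4.31 ± 0.57 and 2.69 ± 0.28, and the phagocytic receptor Mertk rose by 2.29 ± 0.16. Trem2, a lipid receptor of microglia, fell by 2.50 ± 0.22 on the log2 scale. Tnf differed by 1.33 ± 0.36 from untreated cells (adjusted p = 0.0109) and was called higher against Th17-treated cells at 1.52 ± 0.36 (adjusted p = 0.00532). Against Th17-treated cells 4 of the 13 were called higher and 1 lower, beside 6.89% higher and 7.91% lower over all genes.

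The plasmin system, which activates several proenzymes, had 9 tested genes with 2 called lower and 0 higher (median -0.28), beside 7.88% lower and 7.49% higher over all genes. Serpine2, an inhibitor of thrombin and plasminogen activators, fell by 2.54 ± 0.23 on the log2 scale (adjusted p = 6.39e-06). Lrp1, the endocytic receptor that clears metalloproteinases and their inhibitors, fell by 2.12 ± 0.33 on the log2 scale (adjusted p = 0.000353). The plasminogen activator Plau differed by -1.84 ± 0.72 (adjusted p = 0.0569). The other inhibitors Timp4 and Reck were tested and 0 of 2 were called (median -0.84). Timp4 was above background on 0 of 4 Th1 arrays and passed the filter only through the other arrays. Of 13 matrix genes tested, 1 was called higher and 0 lower (median 0.00), a share near the 7.49% of all genes called higher. It was the basement membrane collagen Col4a2, at least 2.34-fold higher, which was above background on the 4 Th1 arrays alone and passed the filter only through them. In Th17-treated cells 0 genes of any of these lists were called. Every called gene of these lists was read by a single kept probe.

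**Figure D4:**
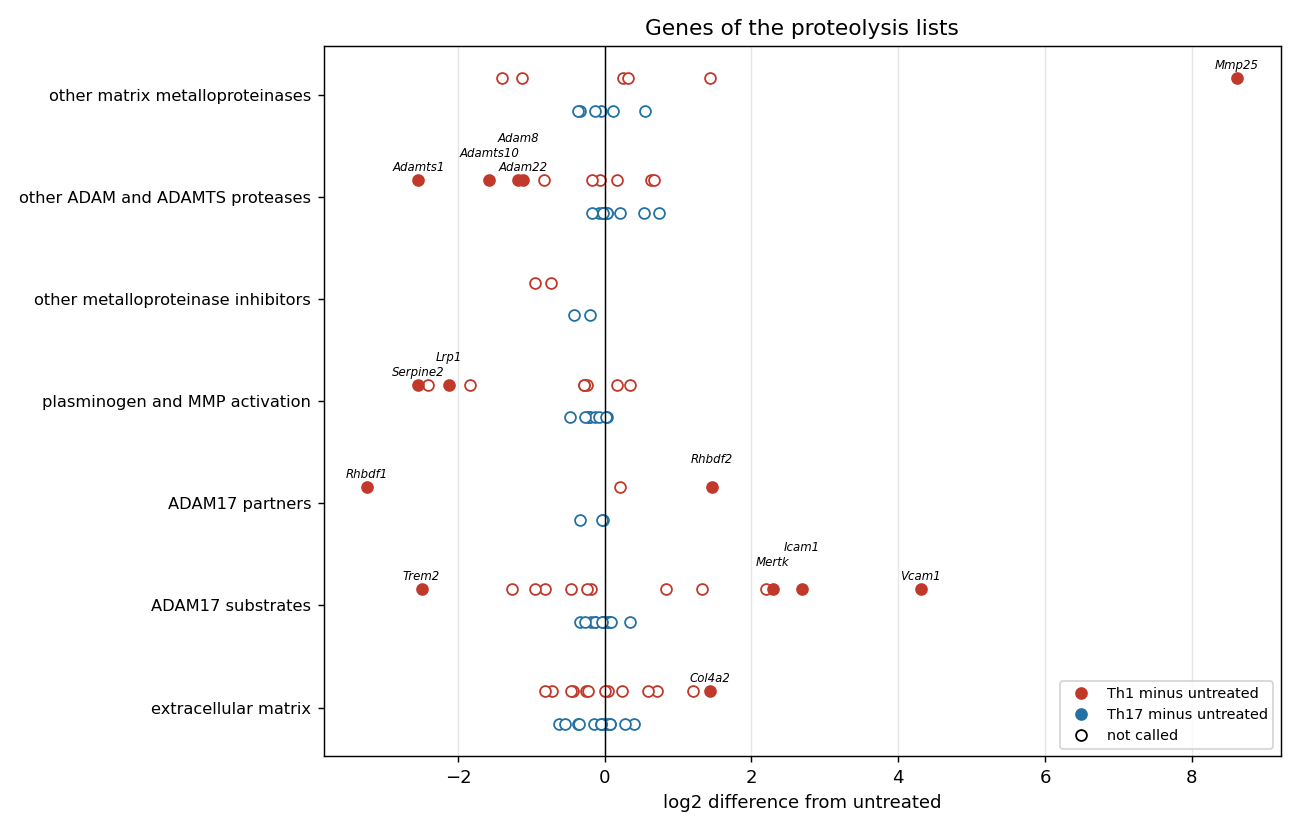
The log2 difference from untreated cells is on the x axis and the 7 lists are on the y axis, with Th1-treated cells in red above Th17-treated cells in blue. Filled and named points were called. Mmp25, at 8.62, lies farthest out (a fitted value with untreated arrays at the floor), and no Th17 point lies farther than 1 from 0.

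The genes with profiles most like those of the called members over the 12 arrays were found by the root mean square distance of the log2 values, after subtracting each gene's untreated mean, among 13907 other genes with a symbol. For Mmp13 these were Ccr1l1, Slc2a6 and Ralgds (distances 0.609, 0.614 and 0.650), and for Mmp14 Acy1, Gca and Itgb7 (0.229, 0.240 and 0.274). Those nearest to Timp1 were Lhx2, Pdcd1lg2 and Vmn1r65 (0.519, 0.529 and 0.658). For Timp2 they were Tpcn1, Adcy9 and Nav1 (0.223, 0.242 and 0.245). The distances of Mmp13 and Timp1 were larger, as were the spreads of these genes between experiments.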

How the data were processed

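The deposited scanner files hold 1 processed intensity (gProcessedSignal) per spot from Agilent Feature Extraction 10.7.3.1, which the authors ran on one-colour arrays of build mm9 and which is background-corrected. The deposited value table holds log2 values, which matched the 75th-percentile-scaled, probe-centred log2 intensities (r at least 0.99999 on every array over 19915 bright probes) and served as an alternative. Its column medians lay between -0.226 and 0.180. Outlier spots (103 to 230 per array) were dropped, spots of a probe averaged geometrically, and arrays quantile normalised, scaled to a 75th percentile of 1500, floored at 15 and log2 transformed. Probes well above background on at least 4 of 12 arrays were kept (24287 of 39429), and the kept probe with the highest mean stood for its gene. Of 19802 genes, 13953 had a symbol, from RefSeq (GRCm38.p6). Tests used limma 3.58.1 in R 4.3.3 on all 12 arrays, 4 per group, and were tested on simulated data. The number of arrays limits the precision.

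Experiment numbers come from the sample titles. Same-numbered arrays deviated together (r 0.245 to 0.633 over 12 pairs, each highest with its own number), so the numbers pair the samples, and blocked values are given where a call changes. Each numbered sample is taken as a separate experiment from the study's methods.

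All 10 members are named, with every called gene of 7 lists (Frmd8, Mmp19, Mmp11, Mmp10, Adam10, Plau, Timp4, Reck and Tnf against untreated cells were named after their values were seen), 3 nearest profiles per called member, and marker genes. The members and lists were chosen with earlier results of these data known, and Mmp14 is among the genes the study itself named from these samples, so their calls are not independent evidence. Alternatives covered scaling, background correction (normexp, with offset 50, on median signals, since the files give no mean signal), floor, filter, probe rule, thresholds, blocks and leaving out arrays. A planned search of protein motifs was not run, and 2 list genes are not reported here and were left out of their lists. Promoter letters are from RefSeq. The study's further spot filters were not repeated.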

Additional observations from a re-analysis of the deposited data

Results flagged for a closer look

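Timp1 in untreated microglia of experiment 14 read 8.40, where untreated cells of the other 3 experiments read 5.81 to 6.10, and its gap to them was large for a group of 4. Of 36 groups of 4 arrays examined in this way, over 12 probes, this was the 1 picked out, and chance alone picks out about 1 in 20 groups. Beside it, the summed signal of 10 oligodendrocyte lineage markers reached 32399 on that array (16287 to 17994 in untreated cells of the other experiments), and 7 of 10 astrocyte markers were above background there (4 to 6 in the others). The summed astrocyte signal was 9016 on that array, below the 12061 in untreated cells of experiment 16. Timp1 was also highest in experiment 14 with Th1 and with Th17 supernatant. Without that untreated array the Th1 difference of Timp1 was 6.88 (adjusted p = 8.08e-07). Whether cells other than microglia gave the signal was not tested.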

How the results depend on the processing

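Mmp13, Mmp14 and Timp1 were called higher and Timp2 lower with Th1 supernatant, against untreated and against Th17-treated cells, under all 24 alternatives each. Among these, dropping the fold limit and taking adjusted p under 0.05 only loosened the thresholds of the same fit, so they could not remove a call. Leaving out single arrays kept 3 members higher and 1 lower in both Th1 comparisons and 0 called with Th17 supernatant. The count of members called lower was 2, with Mmp9 added, in both Th1 comparisons with the experiment as a replicate block, with adjusted p under 0.05, without a floor, with percentile scaling and no floor, and with the deposited value table. Mmp9 was left out by the filter that asks for all 4 arrays of a group above background, so that filter gave it no value. Normexp on median signals lowered the genes called lower over the whole array to 955 for Th1 against untreated cells (1560 in the main analysis) and 954 against Th17-treated cells (1566). With no fold limit these comparisons gave 2749 higher and 3208 lower, and 2663 higher and 3121 lower, against 1484 higher and 1365 higher in the main analysis. The block changed no other call of a member gene.

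Directions of differences that were not called turned as follows. With Th17 against untreated cells, Mmp9 was -0.0505 with percentile scaling, with and without a floor, -0.0490 with the value table and -0.0307 with the slide block. Timp2 was -0.0389 with either percentile scaling, -0.0374 with the value table, -0.0295 as the mean of probes and -0.0502 without experiment 14 (chosen after seeing the data). Timp1 was -0.0268 with normexp. When single arrays were left out, the Th17 difference ranged over -0.1959 to 0.7164 for Timp1, -0.0724 to 0.1673 for Timp2, -0.1970 to 0.5587 for Mmp13, -0.2112 to 0.4260 for Mmp9, -0.6921 to 0.0416 for Mmp8 and -0.9303 to 0.0595 for Timp3. For Th1 against untreated cells Mmp8 ranged over -0.7203 to 0.0815. For Th1 against Th17-treated cells Mmp8 was -0.0870 without experiment 14 and ranged over -0.4051 to 0.5377, Timp3 over -0.8822 to 0.0457 and Mmp12 over -0.9273 to 0.1235. The cause was not tested.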
